A study of Mus musculus with 20 samples.

Results

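The glutathione, thioredoxin and peroxidase families hold the enzymes that remove hydrogen peroxide, lipid peroxides and superoxide and those that join glutathione to reactive compounds. The genes were chosen by name: the glutathione S-transferases of 7 classes, the glutathione peroxidases, peroxiredoxins, thioredoxins, thioredoxin reductases, glutaredoxins and superoxide dismutases, with sulfiredoxin, the quinone reductases, the heme oxygenases, the glutathione synthesis genes Gclc and Gclm, glutathione reductase (Gsr) and the regulator Nfe2l2. The rule found 53 of the 26159 genes with a named probe, and 45 of the 53 passed a filter that left out the lowest 30% of genes by their mean over all arrays. The 8 that did not pass were Gpx5, Gsta2, Gsta3, Gsta4, Gstm6, Gstt3, Gstt4 and Nqo1. Prdx5 and Prdx6 are not analysed here.

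Islets came from male B6.V-Lep ob/ob mice, a strain that makes no working leptin and overeats, so that every group carried this mutation. The groups, with 5 mice and 1 array per mouse in each, were young_CRD (18 weeks on the diet labelled HFD, then 2 days on the diet labelled CRD), young_HFD (18 weeks on HFD), aged_CRD (39 weeks on HFD, then 2 days on CRD) and aged_HFD (39 weeks on HFD). The labels give age and time on HFD as a single number, so age and diet duration cannot be told apart. The diets' abbreviations are not spelled out in the labels. Per the labels' protocols the islets were freed with collagenase and picked by hand.

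Glutathione peroxidases use glutathione to reduce peroxides, and peroxiredoxins do so through thioredoxin, which thioredoxin reductase recharges with electrons from NADPH. Glutathione S-transferases (GSTs) join glutathione to electrophiles, and superoxide dismutases turn superoxide into hydrogen peroxide. Many of these genes are known targets of NRF2, the protein made from Nfe2l2, which binds the antioxidant response element together with a small MAF protein. Beta cells are known for low levels of catalase and glutathione peroxidase compared with liver, and rely largely on peroxiredoxins and thioredoxin against peroxide.

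Values are log2 intensities of 1 probe per gene, and a difference is CRD minus HFD on that scale unless said otherwise. Levels of different genes come from different probes and are not compared. A gene is called when its adjusted p (limma, Benjamini-Hochberg over the 18311 genes tested) is under 0.05. The arrays clustered into 3 sets on 1315 chemosensory receptor genes, a grouping without a label. Set A comprised 1 young_CRD, 4 young_HFD, 4 aged_CRD and 3 aged_HFD arrays. Set B comprised 4 young_CRD arrays and 1 each of young_HFD and aged_HFD, and set C 1 each of aged_CRD and aged_HFD. At 18 weeks the sets lie largely along the diet groups, so a second fit with a term for the array set (the block fit) stands beside most results. A value given without it is from the fit without that term. The 8 beta cell markers, Ins2 at the table's highest value among them, averaged 11.93 to 12.27 in young_CRD, 12.57 to 13.08 in young_HFD, 11.80 to 12.11 in aged_CRD and 12.30 to 12.66 in aged_HFD. Of these 8, 6 were called lower at 18 weeks and 3 at 39 weeks, and 0 higher. The block fit called 4 lower at 18 weeks and 3 at 39 weeks, and 0 higher. The 10 acinar markers on the array averaged 8.14 to 10.41 in young_CRD, 5.92 to 10.05 in young_HFD, 8.31 to 10.22 in aged_CRD and 10.10 to 10.85 in aged_HFD, and none was at 0. Their median difference was 2.46 at 18 weeks (7 of 9 tested called higher, 1 in the block fit, and 0 lower in either, with a block median of 2.15) and -2.34 at 39 weeks (1 higher, 2 lower), so that their median was higher with CRD at 18 weeks and lower at 39 weeks. The other 10 cell type lists had 0 to 2 members called in either direction, and 0 to 3 in the block fit. The part of these markers in the results was not tested, and in bulk RNA fewer cells of a type and less RNA per cell cannot be told apart. The labels do not say how mice were allocated. The p-values rest on the spread between the arrays of these mice, which without the block also holds differences between the array sets.

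Promoter sequences of the families were read from RefSeq (GRCm38.p6), from 250 bases before to 50 bases after each start site, and 46 of the 53 genes had one. The antioxidant response element core TGACNNNGC stood on either strand in 9 of the 65 promoters of these genes (13.8%), against 12.4% of all 32851 promoters. Counted by gene that was 9 of 46 (19.6%), against 14.0% of 27025, the members having more promoters per gene. The longer site TGANTCAGC, which NRF2 binds together with small MAF proteins and which contains the AP-1 site TGANTCA, stood in 3 of the 65 promoters (4.62%), against 1.19% of all promoters. The AP-1 site itself stood in 5 (7.69%), against 7.81%. The promoters of Gclm, Gstm5, Gstp1, Prdx1, Srxn1 and Txnrd1 are shown, 5′ to 3′ along the gene, because they hold at least 1 of the NRF2 motifs while the genes differ in what they did after CRD. Capitals mark every match to the 3 motifs on either strand. These 3 motifs and genes were picked with the expression values known.
Gclm, chr3:122245307-122245606 (plus strand): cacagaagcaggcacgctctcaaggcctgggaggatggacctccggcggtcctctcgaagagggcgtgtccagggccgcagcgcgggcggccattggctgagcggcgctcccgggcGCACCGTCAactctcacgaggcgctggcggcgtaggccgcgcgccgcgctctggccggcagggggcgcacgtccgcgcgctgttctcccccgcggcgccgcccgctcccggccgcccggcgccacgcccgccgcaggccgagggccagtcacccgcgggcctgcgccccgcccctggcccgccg
Gstm5, chr3:107895604-107895903 (plus strand): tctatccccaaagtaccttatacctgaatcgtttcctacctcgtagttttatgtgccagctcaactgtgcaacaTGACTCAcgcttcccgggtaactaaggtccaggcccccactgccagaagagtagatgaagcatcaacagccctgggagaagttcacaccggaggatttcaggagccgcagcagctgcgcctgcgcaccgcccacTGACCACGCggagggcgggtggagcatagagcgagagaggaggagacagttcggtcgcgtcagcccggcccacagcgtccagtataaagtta
Gstp1, chr19:4037863-4038162 (minus strand): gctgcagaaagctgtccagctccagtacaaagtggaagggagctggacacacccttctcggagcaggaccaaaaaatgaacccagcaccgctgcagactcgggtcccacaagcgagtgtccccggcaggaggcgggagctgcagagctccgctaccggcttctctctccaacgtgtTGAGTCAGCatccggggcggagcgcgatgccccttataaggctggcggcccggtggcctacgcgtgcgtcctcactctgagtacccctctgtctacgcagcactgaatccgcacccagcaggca
Prdx1, chr4:116685349-116685648 (plus strand): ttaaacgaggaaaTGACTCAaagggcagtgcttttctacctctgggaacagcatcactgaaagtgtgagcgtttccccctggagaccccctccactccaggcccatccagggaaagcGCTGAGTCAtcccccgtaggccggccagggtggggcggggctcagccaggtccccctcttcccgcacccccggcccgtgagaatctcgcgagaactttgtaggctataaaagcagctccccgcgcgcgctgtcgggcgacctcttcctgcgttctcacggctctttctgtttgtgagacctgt
Srxn1, chr2:152105274-152105573 (plus strand): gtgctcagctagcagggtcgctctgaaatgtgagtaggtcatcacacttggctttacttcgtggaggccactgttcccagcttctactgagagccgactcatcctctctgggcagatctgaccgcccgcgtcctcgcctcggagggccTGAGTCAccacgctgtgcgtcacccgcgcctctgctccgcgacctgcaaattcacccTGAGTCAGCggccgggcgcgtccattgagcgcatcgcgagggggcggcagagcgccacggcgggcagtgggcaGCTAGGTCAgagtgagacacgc
Txnrd1, chr10:82858956-82859255 (plus strand): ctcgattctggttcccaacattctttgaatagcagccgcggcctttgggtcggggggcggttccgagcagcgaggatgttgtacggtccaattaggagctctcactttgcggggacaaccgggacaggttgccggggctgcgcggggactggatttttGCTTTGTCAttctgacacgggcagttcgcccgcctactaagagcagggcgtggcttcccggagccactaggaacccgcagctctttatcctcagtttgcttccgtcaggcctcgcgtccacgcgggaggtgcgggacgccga
The core began 134 bases before the start site in Gclm, 42 before in Gstm5, 133 before in Prdx1, 28 after in Srxn1 and 92 before in Txnrd1. Txnrd1 has other promoters, among them that of its first start site, and these held no match to the 3 motifs. The longer site began 74 bases before the start in Gstp1, 133 before in Prdx1, where it and the core are the same match, and 45 before in Srxn1. Gstm5, Gstp1, Prdx1 and Srxn1 rose after CRD at 18 weeks, Gclm fell and Txnrd1 was not called. The core also stood in promoters of Gsta3, Gstm7, Nfe2l2 and Sod1, which are not shown. Of these, Gstm7 and Sod1 were called higher at 18 weeks without the block only, Nfe2l2 was not called and Gsta3 was below the filter. Promoters of Gsto2, Gsto1, Gpx3 and Txn1, called higher at both ages, held no match to the 3 motifs. Sod3 and Gpx2-ps1 had no promoter here. Whether a motif goes with a rise was not tested. A match is a stretch of letters in this window and does not show binding.

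After 2 days of CRD more members were called higher than lower at each age, with and without the array set as a block. At 18 weeks 22 of the 45 members tested were called higher and 4 lower, beside 17% and 7.89% of all genes tested. The block fit called 14 higher and 5 lower, beside 6.89% and 5.97%, and 13 and 4 were called in both fits. At 39 weeks 7 members were called higher and 5 lower, beside 3.5% and 4.84% of all genes, and in the block fit 14 and 6, beside 7.49% and 7.79%. The share of members called lower was thus near the background at 18 weeks (8.89% of members) and above it at 39 weeks (11.1%, beside 4.84%). In the block fit it was 11.1% at 18 weeks and 13.3% at 39 weeks, beside 5.97% and 7.79%, on few members each. The share called higher was 48.9% at 18 weeks and 15.6% at 39 weeks, and 31.1% at both ages in the block fit. The members' median difference was 0.64 at 18 weeks (0.39 in the block fit), beside 0.04 over all genes, and 0.22 at 39 weeks (0.33 in the block fit), beside 0.02. Groups did not overlap, with CRD above, in 10 members at 18 weeks and 8 at 39 weeks, beside 6.6% and 3.88% of all genes, and with CRD below in 4 and 6, beside 3% and 8.82%.

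**Figure D1:**
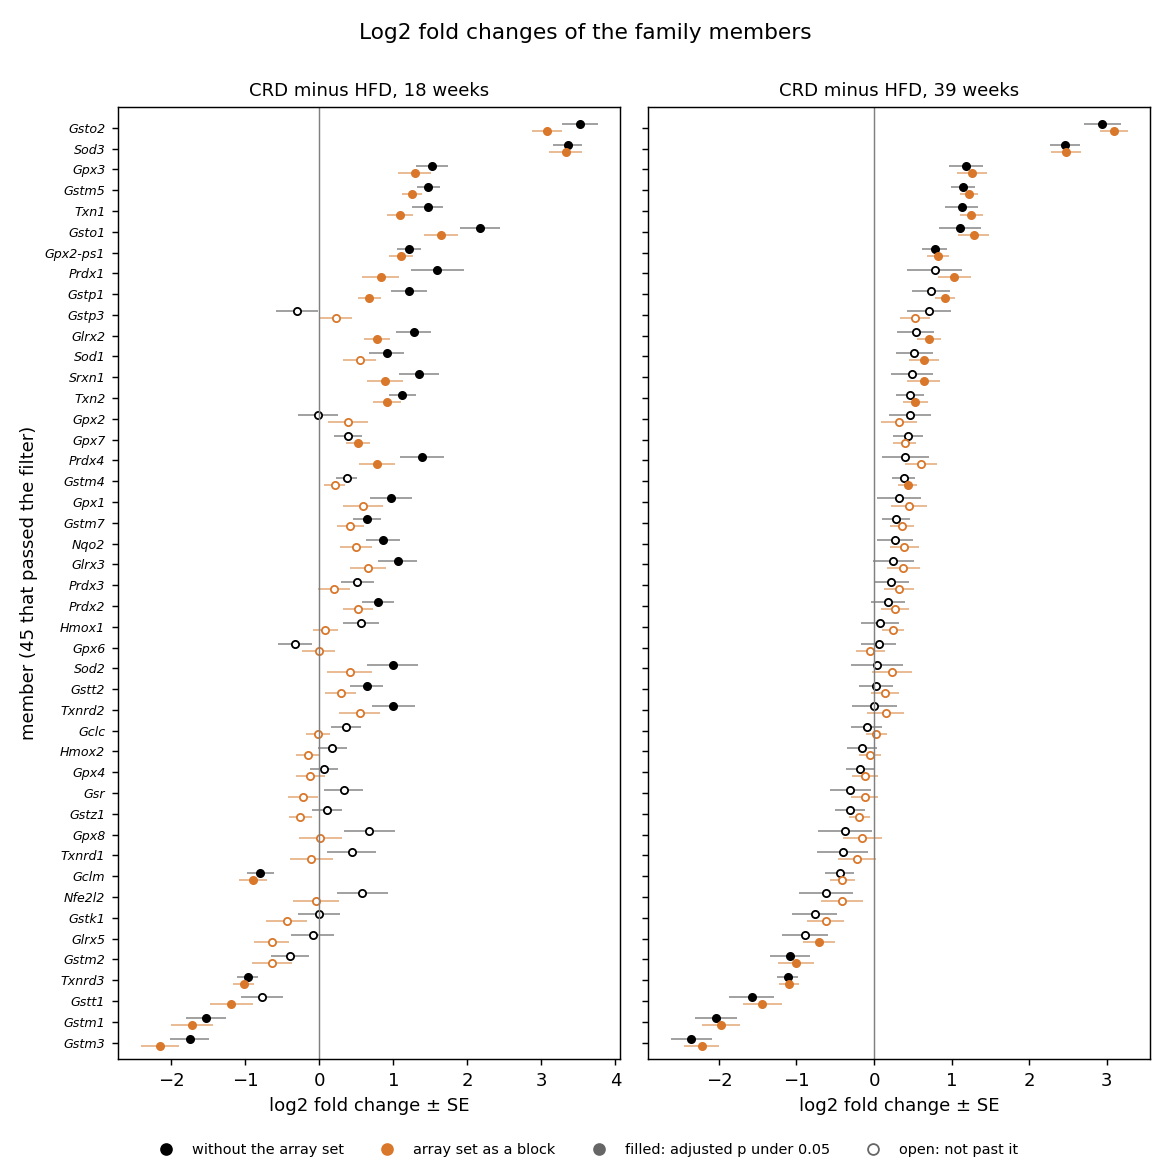
CRD minus HFD log2 fold change (x axis, ± SE) of the 45 members tested (y axis), at 18 and at 39 weeks, without the array set and with it as a block; filled points passed an adjusted p of 0.05. Gsto2 and Sod3 lie farthest to the right at both ages, from 2.46 to 3.52 without the block, and Gstm3 and Gstm1 farthest to the left.

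Called higher at both ages were 7 members, Gsto2, Sod3, Gsto1, Gpx3, Gstm5, Txn1 and Gpx2-ps1, beside 3.19% of all genes, and called lower at both ages were Gstm3, Gstm1 and Txnrd3, beside 2.11%. All 10 were also called at both ages in the block fit, which added Glrx2, Gstp1, Prdx1, Srxn1 and Txn2 as higher (12 members, beside 5.48% of genes) and Gstt1 as lower (4, beside 4.06%). For each of the 10 the groups did not overlap at either age. The 10 were picked by their calls on these same arrays, so this adds no support to the calls. The share of all genes apart at both ages was not counted. Within set A alone, where 1 young_CRD array stands against 4 young_HFD arrays, Gsto2, Sod3 and Gsto1 were the members called at 18 weeks, all higher; over all genes 117 were called higher there, against 3120 on all arrays, and the members' median difference was 0.50. At 39 weeks, with the chemosensory receptor genes brought to the same mean on every array, which moved the median of all genes to -0.18, Gsto2 and Sod3 were the 2 members called higher, and Gstm1, Gstm3, Gstt1 and Txnrd3 the 4 called lower.

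**Figure D2:**
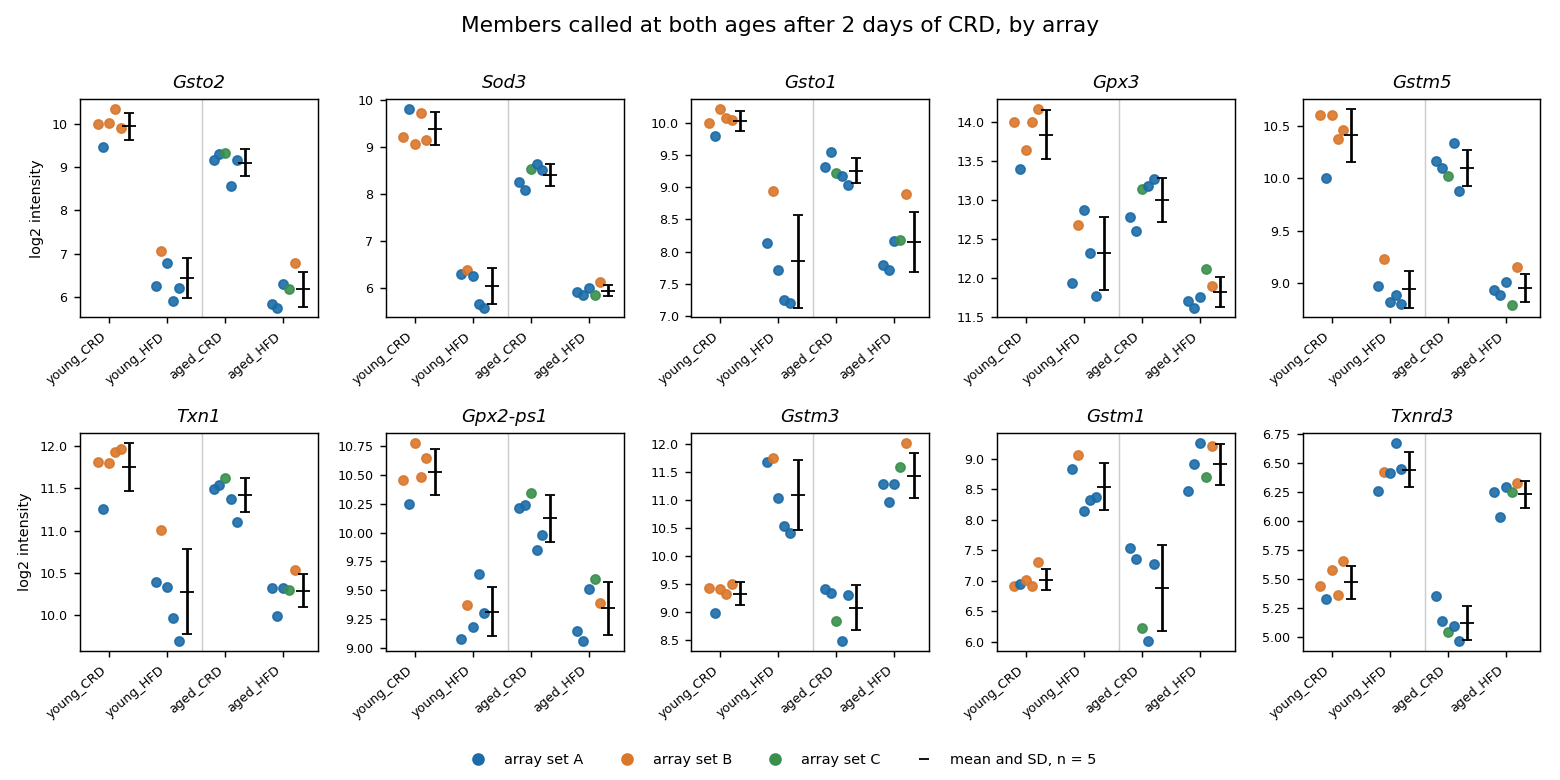
Log2 intensity (y axis) on each of the 20 arrays in the 4 groups (x axis) for the 10 members called at both ages, coloured by array set, with the mean and SD of each group (n = 5). In each panel every young_CRD point lies on 1 side of every young_HFD point and every aged_CRD point on the same side of every aged_HFD point. The members were chosen by their calls on these same arrays.

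The omega-class GSTs, which reduce dehydroascorbate and other small molecules and whose genes are neighbours on chromosome 19, rose at both ages. Gsto2 showed the largest rise of the transferases tested at both ages, with and without the block. Gsto2 read 10.00, 9.47, 10.02, 10.35 and 9.91 in young_CRD, against 6.25, 7.05, 6.78, 5.89 and 6.20 in young_HFD. At 39 weeks it read 9.17, 9.32, 9.34, 8.57 and 9.16 in aged_CRD, against 5.83, 5.75, 6.30, 6.18 and 6.78 in aged_HFD. The lowest CRD array of all 10 (8.57) was therefore well above the highest HFD array (7.05). Gsto2 rose by 3.52 ± 0.24 (SE, adjusted p = 8.86e-09) at 18 weeks and by 2.94 ± 0.24 (SE, adjusted p = 1.19e-07) at 39 weeks, and by 3.08 and 3.09 in the block fit, an 11.4-fold difference of the means at 18 weeks. Gsto1 read 10.00, 9.79, 10.21, 10.07 and 10.04 in young_CRD, against 8.14, 8.94, 7.71, 7.25 and 7.21 in young_HFD. At 39 weeks Gsto1 read 9.31, 9.55, 9.22, 9.17 and 9.04 in aged_CRD, against 7.79, 7.72, 8.16, 8.18 and 8.90 in aged_HFD. In both HFD groups the set B array was the highest, at 8.94 and 8.90, and the CRD arrays were all above it. Gsto1 rose by 2.17 ± 0.27 (SE, adjusted p = 1.51e-05) at 18 weeks and by 1.11 ± 0.27 (SE, adjusted p = 0.0134) at 39 weeks, with block values of 1.65 and 1.28. Whether the probes of the 2 paralogs share target sequence was not tested.

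Superoxide dismutase 3 (Sod3) is the secreted, copper and zinc enzyme that acts outside the cell, Sod1 is the cytosolic one and Sod2 the manganese enzyme of mitochondria. Sod3 read 9.21, 9.81, 9.06, 9.73 and 9.16 in young_CRD, against 6.31, 6.38, 6.26, 5.66 and 5.59 in young_HFD. At 39 weeks Sod3 read 8.25, 8.10, 8.54, 8.65 and 8.52 in aged_CRD, against 5.91, 5.86, 6.01, 5.85 and 6.13 in aged_HFD. The HFD arrays lay in a narrow band of 5.59 to 6.38 at both ages and the CRD arrays between 8.10 and 9.81. Sod3 rose by 3.35 ± 0.20 (SE, adjusted p = 9.15e-10) at 18 weeks and by 2.46 ± 0.20 (SE, adjusted p = 9.47e-08) at 39 weeks, and by 3.33 and 2.47 in the block fit. The single young_CRD array of set A was the highest of all 20, and within set A the difference at 18 weeks was 3.85, within set B 2.91. Sod1 rose by 0.91 ± 0.24 (SE, adjusted p = 0.0102) and Sod2 by 0.99 ± 0.34 (SE, adjusted p = 0.0389) at 18 weeks, and the block fit gave 0.54 (adjusted p = 0.122) and 0.41 (adjusted p = 0.488) and called neither. At 39 weeks Sod1 differed by 0.52 ± 0.24 (SE, adjusted p = 0.218) and by 0.64 (adjusted p = 0.0262) in the block fit, and Sod2 by 0.04 ± 0.34 (SE, adjusted p = 0.968) and 0.23 (adjusted p = 0.64).

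The mu-class GSTs lie in 1 cluster on chromosome 3, in the order Gstm5, Gstm7, Gstm6, Gstm3, Gstm2, Gstm1 and Gstm4, and they moved in both directions. At the cluster's first position Gstm5 read 10.61, 10.00, 10.61, 10.38 and 10.46 in young_CRD, against 8.97, 9.23, 8.82, 8.88 and 8.80 in young_HFD. At 39 weeks Gstm5 read 10.17, 10.10, 10.02, 10.34 and 9.88 in aged_CRD, against 8.93, 8.88, 9.01, 8.79 and 9.15 in aged_HFD. No array of a CRD group was below 9.88 and none of an HFD group above 9.23. Gstm5 rose by 1.47 ± 0.15 (SE, adjusted p = 1.32e-06) at 18 weeks and by 1.15 ± 0.15 (SE, adjusted p = 4.77e-05) at 39 weeks. Gstm3 went the other way: it read 9.44, 8.98, 9.42, 9.32 and 9.50 in young_CRD, against 11.68, 11.75, 11.03, 10.54 and 10.41 in young_HFD. At 39 weeks Gstm3 read 9.41, 9.35, 8.85, 8.49 and 9.30 in aged_CRD, against 11.29, 10.97, 11.29, 11.59 and 12.02 in aged_HFD. The lowest HFD array read 10.41 and the highest CRD array 9.50. Gstm3 fell by 1.75 ± 0.27 (SE, adjusted p = 0.000115) at 18 weeks and by 2.35 ± 0.27 (SE, adjusted p = 7e-06) at 39 weeks.

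Gstm1, which is the widely expressed mu-class enzyme of liver, read 6.92, 6.94, 7.02, 6.91 and 7.31 in young_CRD, against 8.83, 9.07, 8.14, 8.32 and 8.38 in young_HFD. At 39 weeks Gstm1 read 7.53, 7.35, 6.22, 6.01 and 7.27 in aged_CRD, against 8.47, 8.92, 9.27, 8.70 and 9.21 in aged_HFD. In aged_CRD replicates 3 and 4 were lowest, at 6.22 and 6.01, and all 5 arrays were still below the aged_HFD arrays. Gstm1 fell by 1.53 ± 0.27 (SE, adjusted p = 0.000495) at 18 weeks and by 2.04 ± 0.27 (SE, adjusted p = 4.77e-05) at 39 weeks. Gstm2 read 5.69, 5.32, 5.55, 5.69 and 5.47 in young_CRD, against 6.01, 6.37, 5.44, 6.13 and 5.75 in young_HFD. At 39 weeks Gstm2 read 5.78, 5.61, 4.83, 4.23 and 5.36 in aged_CRD, against 6.03, 5.95, 6.58, 6.04 and 6.65 in aged_HFD. Its groups overlapped at 18 weeks and not at 39 weeks. Gstm2 differed by -0.39 ± 0.25 (SE, adjusted p = 0.243) at 18 weeks and fell by 1.09 ± 0.25 (SE, adjusted p = 0.00929) at 39 weeks. Gstm7 rose by 0.64 ± 0.18 (SE, adjusted p = 0.0161) at 18 weeks, which the block fit did not call (0.42, adjusted p = 0.155), and differed by 0.28 ± 0.18 (SE, adjusted p = 0.435) at 39 weeks. Gstm4 differed by 0.37 ± 0.15 (SE, adjusted p = 0.0698) and 0.38 ± 0.15 (SE, adjusted p = 0.129), and the block fit called it higher at 39 weeks (0.43, adjusted p = 0.0195). Block values at 18 and 39 weeks were 1.25 and 1.22 for Gstm5, -2.16 and -2.22 for Gstm3, -1.73 and -1.97 for Gstm1 and -0.64 at 18 weeks for Gstm2, which the block fit also called lower at 39 weeks (adjusted p = 0.00552). Paralogs of this cluster are close in sequence, and whether their probes cross-hybridise was not tested.

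**Figure D3:**
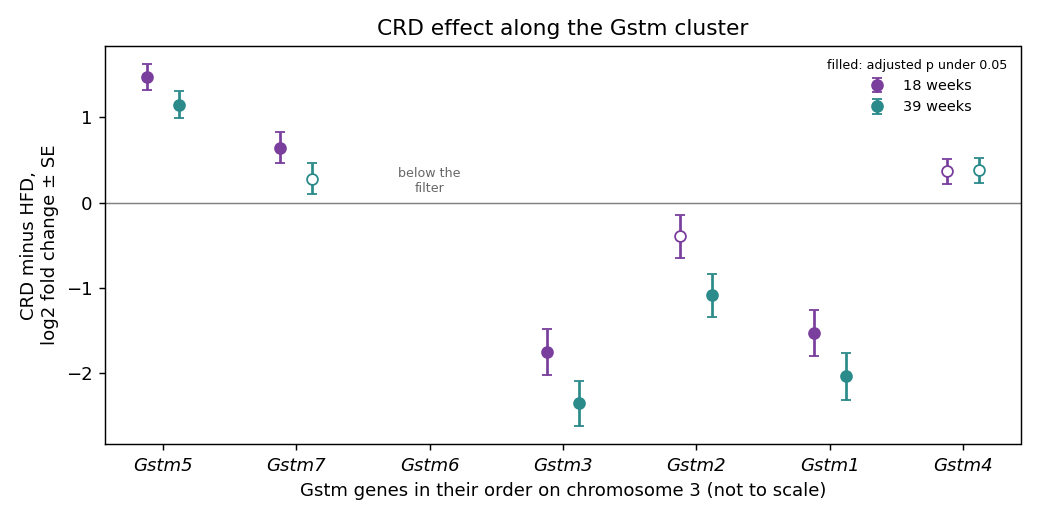
CRD minus HFD log2 fold change (y axis, ± SE) of the Gstm genes in their order on chromosome 3 (x axis, not to scale) at 18 and 39 weeks; filled points passed an adjusted p of 0.05 and Gstm6 was below the filter. Gstm5 lies above 0 and Gstm3, Gstm2 and Gstm1 below 0 at both ages.

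The other GST classes are represented by fewer members. Gstt1, a theta-class enzyme, read 9.01, 8.56, 9.16, 8.65 and 8.98 in young_CRD, against 10.12, 10.48, 9.59, 9.07 and 8.98 in young_HFD. At 39 weeks Gstt1 read 8.83, 8.81, 8.14, 7.51 and 8.40 in aged_CRD, against 9.75, 9.53, 9.77, 10.10 and 10.42 in aged_HFD. Replicates 4 and 5 of young_HFD reached down into the young_CRD range, while the 39-week groups did not overlap. Gstt1 differed by -0.78 ± 0.29 (SE, adjusted p = 0.0542) at 18 weeks, where the block fit called it lower by 1.19 (adjusted p = 0.00894), and fell by 1.58 ± 0.29 (SE, adjusted p = 0.00128) at 39 weeks. Gstp1, the pi-class enzyme, read 11.78, 10.87, 11.95, 11.64 and 11.96 in young_CRD, against 10.42, 11.17, 10.44, 10.18 and 9.92 in young_HFD. At 39 weeks Gstp1 read 11.24, 11.31, 11.22, 11.24 and 11.15 in aged_CRD, against 10.21, 10.10, 10.48, 10.58 and 11.11 in aged_HFD. At 18 weeks the set A array of young_CRD (10.87) was below the set B array of young_HFD (11.17), and the groups otherwise did not overlap. Gstp1 rose by 1.21 ± 0.24 (SE, adjusted p = 0.0013) at 18 weeks, 0.67 (adjusted p = 0.00567) in the block fit. At 39 weeks it differed by 0.73 ± 0.24 (SE, adjusted p = 0.0654), with every aged_CRD array above every aged_HFD array, and the block fit called it higher by 0.91 (adjusted p = 8.56e-05). Gstt2 rose by 0.64 ± 0.22 (SE, adjusted p = 0.0411) at 18 weeks and the block fit did not call it (0.29, adjusted p = 0.471). Gstk1, the kappa-class enzyme of mitochondria and peroxisomes, and Gstp3 were called at neither age in either fit. Gstz1, which also acts as maleylacetoacetate isomerase in tyrosine breakdown, was called in neither fit, and its 2 probes differed by 0.10 and 0.37 at 18 weeks. Of the 20 GSTs, 6 lay below the filter (Gsta2, Gsta3, Gsta4, Gstm6, Gstt3 and Gstt4) and have no test here.

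Among the glutathione peroxidases the secreted plasma enzyme Gpx3 rose at both ages. It read 14.00, 13.40, 13.64, 14.01 and 14.17 in young_CRD, against 11.93, 12.68, 12.88, 12.32 and 11.77 in young_HFD. At 39 weeks Gpx3 read 12.79, 12.61, 13.14, 13.18 and 13.27 in aged_CRD, against 11.70, 11.62, 11.75, 12.11 and 11.90 in aged_HFD. The lowest young_CRD array (13.40) was above the highest young_HFD array (12.88), and the lowest aged_CRD array (12.61) above the highest aged_HFD array (12.11). Gpx3 rose by 1.52 ± 0.22 (SE, adjusted p = 6.23e-05) at 18 weeks and by 1.18 ± 0.22 (SE, adjusted p = 0.00129) at 39 weeks, and by 1.29 and 1.26 in the block fit. The probe named Gpx2-ps1, a pseudogene symbol, read 10.46, 10.25, 10.78, 10.48 and 10.65 in young_CRD, against 9.08, 9.37, 9.18, 9.64 and 9.30 in young_HFD. At 39 weeks Gpx2-ps1 read 10.21, 10.24, 10.34, 9.85 and 9.98 in aged_CRD, against 9.15, 9.06, 9.51, 9.60 and 9.39 in aged_HFD. None of these groups overlapped. Gpx2-ps1 rose by 1.21 ± 0.16 (SE, adjusted p = 3.27e-05) at 18 weeks and by 0.78 ± 0.16 (SE, adjusted p = 0.00378) at 39 weeks, with block values of 1.10 and 0.82. Gpx2 itself, the gastrointestinal enzyme, differed by -0.02 ± 0.27 (SE, adjusted p = 0.96) and 0.46 ± 0.27 (SE, adjusted p = 0.369).

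The other peroxidases moved less. Gpx1, the cytosolic enzyme, rose by 0.97 ± 0.28 (SE, adjusted p = 0.0175) at 18 weeks, which the block fit did not call (0.59, adjusted p = 0.18). Gpx4, which reduces lipid peroxides within membranes, differed by 0.07 ± 0.19 (SE, adjusted p = 0.798) at 18 weeks and -0.18 ± 0.19 (SE, adjusted p = 0.67) at 39 weeks. Gpx7 and Gpx8, which act in the endoplasmic reticulum, differed by 0.38 ± 0.19 (SE, adjusted p = 0.135) and 0.68 ± 0.35 (SE, adjusted p = 0.149) at 18 weeks, and the block fit called Gpx7 higher there (0.52, adjusted p = 0.0403). Gpx6 was called at neither age in either fit, and Gpx5 was below the filter.

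The thioredoxin system takes electrons from NADPH to peroxiredoxins, ribonucleotide reductase and methionine sulfoxide reductases. Txn1, the cytosolic thioredoxin, read 11.81, 11.25, 11.80, 11.92 and 11.96 in young_CRD, against 10.39, 11.01, 10.34, 9.97 and 9.70 in young_HFD. At 39 weeks Txn1 read 11.49, 11.53, 11.62, 11.37 and 11.10 in aged_CRD, against 10.32, 9.99, 10.32, 10.30 and 10.54 in aged_HFD. CRD lay above HFD at both ages without overlap, the set A array of young_CRD being the lowest of its group. Txn1 rose by 1.46 ± 0.21 (SE, adjusted p = 6.81e-05) at 18 weeks and by 1.13 ± 0.21 (SE, adjusted p = 0.00147) at 39 weeks, and by 1.08 and 1.26 in the block fit. Txn2, the mitochondrial thioredoxin, read 10.65, 10.75, 11.16, 10.78 and 10.91 in young_CRD, against 10.03, 10.15, 9.88, 9.41 and 9.17 in young_HFD. At 39 weeks Txn2 read 10.36, 10.50, 10.45, 10.06 and 10.31 in aged_CRD, against 9.84, 9.69, 9.88, 9.77 and 10.17 in aged_HFD. The groups were apart at 18 weeks and overlapped at 39 weeks. Txn2 rose by 1.12 ± 0.19 (SE, adjusted p = 0.000257) at 18 weeks and differed by 0.46 ± 0.19 (SE, adjusted p = 0.144) at 39 weeks, where the block fit called it higher (0.53, adjusted p = 0.0339).

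The 3 thioredoxin reductases did not move together. Txnrd3, known from mouse testis for joining a glutaredoxin domain to a reductase, read 5.44, 5.33, 5.58, 5.37 and 5.66 in young_CRD, against 6.26, 6.43, 6.42, 6.68 and 6.45 in young_HFD. At 39 weeks Txnrd3 read 5.36, 5.14, 5.05, 5.10 and 4.97 in aged_CRD, against 6.25, 6.04, 6.30, 6.25 and 6.33 in aged_HFD. Every CRD array was below every HFD array at its age. Txnrd3 fell by 0.97 ± 0.14 (SE, adjusted p = 4.85e-05) at 18 weeks and by 1.11 ± 0.14 (SE, adjusted p = 1.68e-05) at 39 weeks, and by 1.03 and 1.10 in the block fit. Txnrd1, the cytosolic reductase, read 10.04, 9.17, 10.07, 9.94 and 10.33 in young_CRD, against 10.15, 10.29, 9.71, 8.74 and 8.48 in young_HFD. At 39 weeks Txnrd1 read 9.35, 9.49, 9.87, 8.99 and 9.24 in aged_CRD, against 9.95, 9.23, 9.31, 10.18 and 10.26 in aged_HFD. Both pairs of groups overlapped. Txnrd1 differed by 0.43 ± 0.33 (SE, adjusted p = 0.317) at 18 weeks and by -0.40 ± 0.33 (SE, adjusted p = 0.561) at 39 weeks. Txnrd2, the mitochondrial reductase, rose by 1.00 ± 0.29 (SE, adjusted p = 0.0172) at 18 weeks, which the block fit did not call (0.54, adjusted p = 0.239), and differed by 0.00 ± 0.29 (SE, adjusted p = 0.998) at 39 weeks.

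Peroxiredoxins take up most of the peroxide in cells, and sulfiredoxin (Srxn1) restores them after overoxidation. Prdx1, the abundant cytosolic form, read 12.50, 11.27, 12.60, 12.52 and 12.72 in young_CRD, against 11.00, 11.90, 10.94, 10.05 and 9.76 in young_HFD. At 39 weeks Prdx1 read 11.36, 11.65, 12.05, 11.65 and 11.47 in aged_CRD, against 11.00, 10.13, 10.44, 11.12 and 11.58 in aged_HFD. In young_CRD the 4 set B arrays read 12.50 to 12.72 and the set A array 11.27, and the set B array of young_HFD read 11.90, so array set and level moved together. Prdx1 rose by 1.59 ± 0.36 (SE, adjusted p = 0.00337) at 18 weeks and by 0.83 (adjusted p = 0.0313) in the block fit, and differed by 0.78 ± 0.36 (SE, adjusted p = 0.214) at 39 weeks, where the block fit called it higher (1.04, adjusted p = 0.00231). Prdx4, the peroxiredoxin of the endoplasmic reticulum, read 11.10, 10.23, 10.95, 11.30 and 11.27 in young_CRD, against 10.08, 10.70, 9.48, 9.01 and 8.64 in young_HFD. At 39 weeks Prdx4 read 10.03, 10.24, 10.47, 9.90 and 10.31 in aged_CRD, against 9.69, 9.54, 9.68, 9.72 and 10.29 in aged_HFD. Set B arrays were again the high ones in both HFD groups. Prdx4 rose by 1.39 ± 0.30 (SE, adjusted p = 0.00277) at 18 weeks and by 0.78 (adjusted p = 0.0362) in the block fit, and differed by 0.40 ± 0.30 (SE, adjusted p = 0.514) at 39 weeks, 0.61 (adjusted p = 0.0564) in the block fit. Acinar cells also express Prdx4, and the acinar markers' median was higher at 18 weeks and lower at 39 weeks, as given above; their part in this result was not tested.

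Srxn1 read 10.38, 9.65, 10.77, 10.29 and 10.80 in young_CRD, against 9.54, 9.61, 9.30, 8.43 and 8.27 in young_HFD. At 39 weeks Srxn1 read 9.58, 9.70, 9.86, 9.49 and 9.44 in aged_CRD, against 9.27, 8.74, 8.91, 9.12 and 9.61 in aged_HFD. At 18 weeks the lowest CRD array (9.65) was just above the highest HFD array (9.61), and at 39 weeks the groups overlapped through the set B array of aged_HFD. Srxn1 rose by 1.35 ± 0.27 (SE, adjusted p = 0.00136) at 18 weeks and by 0.89 (adjusted p = 0.0185) in the block fit, and differed by 0.49 ± 0.27 (SE, adjusted p = 0.327) at 39 weeks, where the block fit called it higher (0.64, adjusted p = 0.0453). Prdx2 rose by 0.79 ± 0.22 (SE, adjusted p = 0.0125) at 18 weeks and Prdx3, the mitochondrial peroxiredoxin, differed by 0.51 ± 0.22 (SE, adjusted p = 0.0954), and the block fit called neither (0.52 and 0.20, adjusted p = 0.107 and 0.695). Among the glutaredoxins, which use glutathione to reduce protein disulfides, Glrx2 of mitochondria read 9.85, 9.11, 9.95, 9.86 and 10.04 in young_CRD, against 8.77, 9.24, 8.50, 8.02 and 7.90 in young_HFD. At 39 weeks Glrx2 read 9.11, 9.30, 9.02, 8.96 and 8.97 in aged_CRD, against 8.42, 8.21, 8.45, 8.49 and 9.10 in aged_HFD. The groups overlapped at 18 weeks only through the set A array of young_CRD (9.11) and the set B array of young_HFD (9.24). Glrx2 rose by 1.27 ± 0.24 (SE, adjusted p = 0.000829) at 18 weeks and by 0.78 (adjusted p = 0.00567) in the block fit, and differed by 0.54 ± 0.24 (SE, adjusted p = 0.199) at 39 weeks, 0.70 (adjusted p = 0.00354) in the block fit. A second Glrx2 probe differed by 0.79 and 0.39. Glrx3 and Glrx5 both act in iron-sulfur cluster handling. Glrx3 rose by 1.06 ± 0.26 (SE, adjusted p = 0.00737) at 18 weeks, which the block fit did not call (0.66, adjusted p = 0.0859), and Glrx5 differed by -0.89 ± 0.29 (SE, adjusted p = 0.0651) at 39 weeks, where the block fit called it lower (-0.71, adjusted p = 0.0237).

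**Figure D4:**
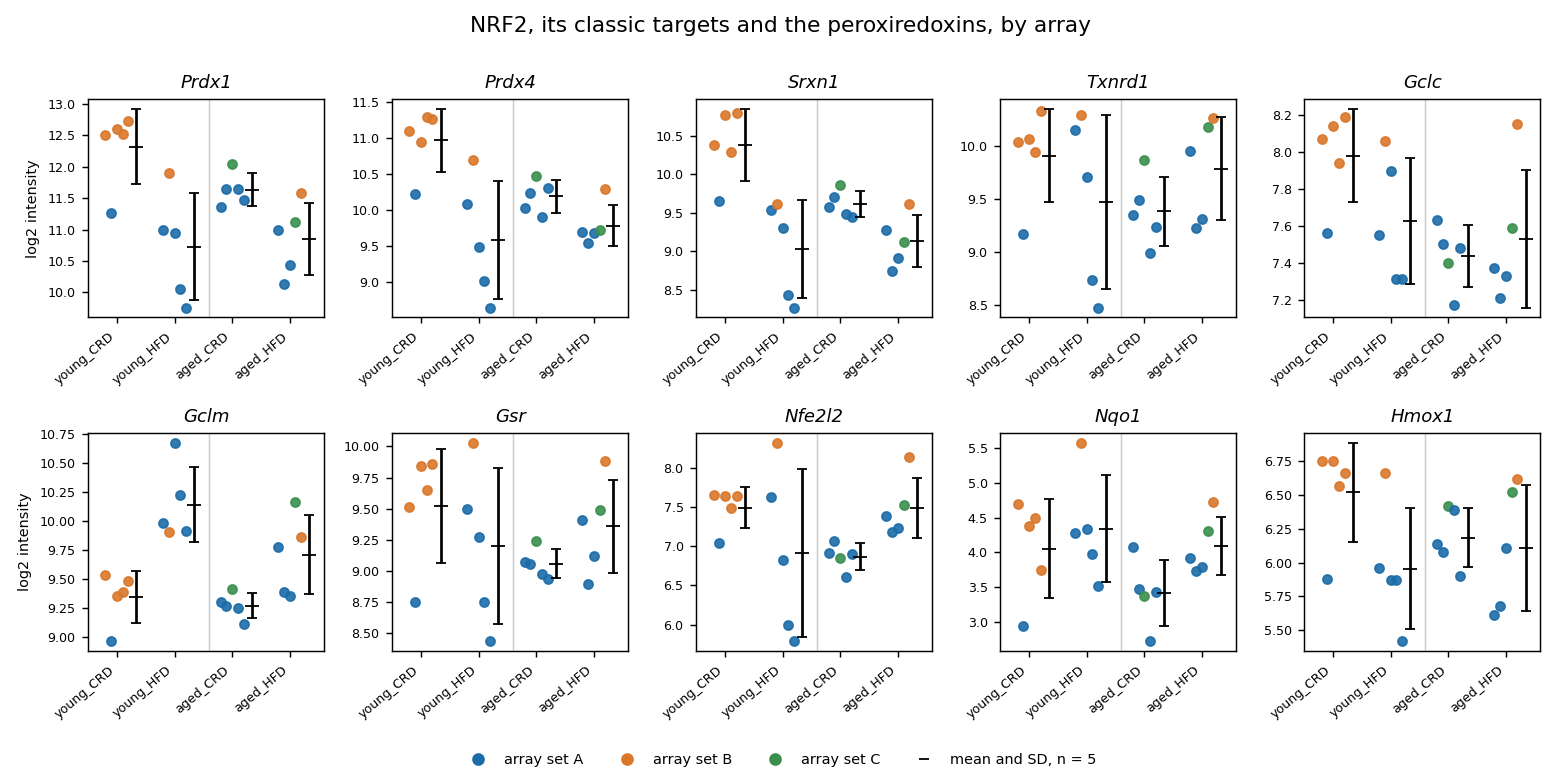
Log2 intensity (y axis) on each array in the 4 groups (x axis) for Prdx1, Prdx4, Srxn1 and 7 members of the NRF2 and glutathione branch, coloured by array set, with the mean and SD of each group (n = 5). For Prdx1, Prdx4 and Srxn1 the CRD means lie above the HFD means, those of Gclm lie below, Nqo1 was below the filter and not tested, and Txnrd1, Gclc, Gsr, Nfe2l2 and Hmox1 were called at neither age.

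Nfe2l2, Gclc, Gclm and Gsr were not among the members called higher in either fit. Of all genes, 17% were called higher at 18 weeks and 3.5% at 39 weeks (6.89% and 7.49% in the block fit). At these shares, none called higher among so few genes is no result about them. Glutamate-cysteine ligase, the rate-limiting enzyme of glutathione synthesis, is made of the catalytic subunit Gclc and the modifier subunit Gclm. Gclm read 9.54, 8.97, 9.36, 9.39 and 9.49 in young_CRD, against 9.99, 9.91, 10.68, 10.23 and 9.92 in young_HFD. At 39 weeks Gclm read 9.31, 9.27, 9.42, 9.25 and 9.12 in aged_CRD, against 9.78, 9.39, 9.36, 10.17 and 9.87 in aged_HFD. The 18-week groups did not overlap. Gclm fell by 0.80 ± 0.19 (SE, adjusted p = 0.00458) at 18 weeks and by 0.89 (adjusted p = 0.00363) in the block fit, and differed by -0.44 ± 0.19 (SE, adjusted p = 0.174) at 39 weeks. Gclc read 8.07, 7.56, 8.14, 7.94 and 8.19 in young_CRD, against 7.55, 8.06, 7.90, 7.31 and 7.31 in young_HFD. At 39 weeks Gclc read 7.63, 7.50, 7.40, 7.17 and 7.48 in aged_CRD, against 7.37, 7.21, 7.33, 7.59 and 8.15 in aged_HFD. Its groups overlapped at both ages, with differences of 0.36 ± 0.20 (SE, adjusted p = 0.183) at 18 weeks and -0.09 ± 0.20 (SE, adjusted p = 0.844) at 39 weeks. Gsr read 9.51, 8.75, 9.84, 9.65 and 9.86 in young_CRD, against 9.50, 10.03, 9.27, 8.75 and 8.44 in young_HFD. At 39 weeks Gsr read 9.07, 9.06, 9.24, 8.98 and 8.94 in aged_CRD, against 9.41, 8.90, 9.12, 9.49 and 9.88 in aged_HFD. It was called at neither age, with differences of 0.33 ± 0.27 (SE, adjusted p = 0.355) and -0.30 ± 0.27 (SE, adjusted p = 0.596).

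Nfe2l2, which encodes NRF2, read 7.65, 7.04, 7.64, 7.49 and 7.64 in young_CRD, against 7.63, 8.32, 6.82, 5.99 and 5.79 in young_HFD. At 39 weeks Nfe2l2 read 6.91, 7.07, 6.85, 6.60 and 6.90 in aged_CRD, against 7.38, 7.18, 7.23, 7.53 and 8.13 in aged_HFD. The young_HFD arrays spread from 5.79 to 8.32, the widest range of the 4 groups, and at 39 weeks every CRD array was below every HFD array. Nfe2l2 differed by 0.58 ± 0.35 (SE, adjusted p = 0.21) at 18 weeks and by -0.62 ± 0.35 (SE, adjusted p = 0.339) at 39 weeks, and by -0.05 (adjusted p = 0.959) and -0.41 (adjusted p = 0.36) in the block fit. Messenger RNA level is not NRF2 protein level, which is set largely by protein breakdown. Hmox1, the inducible heme oxygenase, read 6.75, 5.88, 6.75, 6.57 and 6.66 in young_CRD, against 5.96, 6.66, 5.87, 5.87 and 5.42 in young_HFD. At 39 weeks Hmox1 read 6.14, 6.08, 6.42, 6.39 and 5.90 in aged_CRD, against 5.61, 5.68, 6.11, 6.52 and 6.62 in aged_HFD. The ranges overlapped at both ages. Hmox1 differed by 0.57 ± 0.24 (SE, adjusted p = 0.0887) and 0.08 ± 0.24 (SE, adjusted p = 0.896), and Hmox2, the constitutive form, by 0.17 ± 0.19 (SE, adjusted p = 0.507) and -0.15 ± 0.19 (SE, adjusted p = 0.728). Nqo1, a quinone reductase and a standard NRF2 target, lay below the filter and read 4.70, 2.94, 4.38, 4.50 and 3.74 in young_CRD, against 4.28, 5.58, 4.34, 3.98 and 3.51 in young_HFD. At 39 weeks Nqo1 read 4.08, 3.47, 3.37, 2.72 and 3.42 in aged_CRD, against 3.92, 3.73, 3.78, 4.30 and 4.73 in aged_HFD. Nqo2 rose by 0.86 ± 0.23 (SE, adjusted p = 0.0124) at 18 weeks, and the block fit did not call it (0.49, adjusted p = 0.172).

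**Figure D5:**
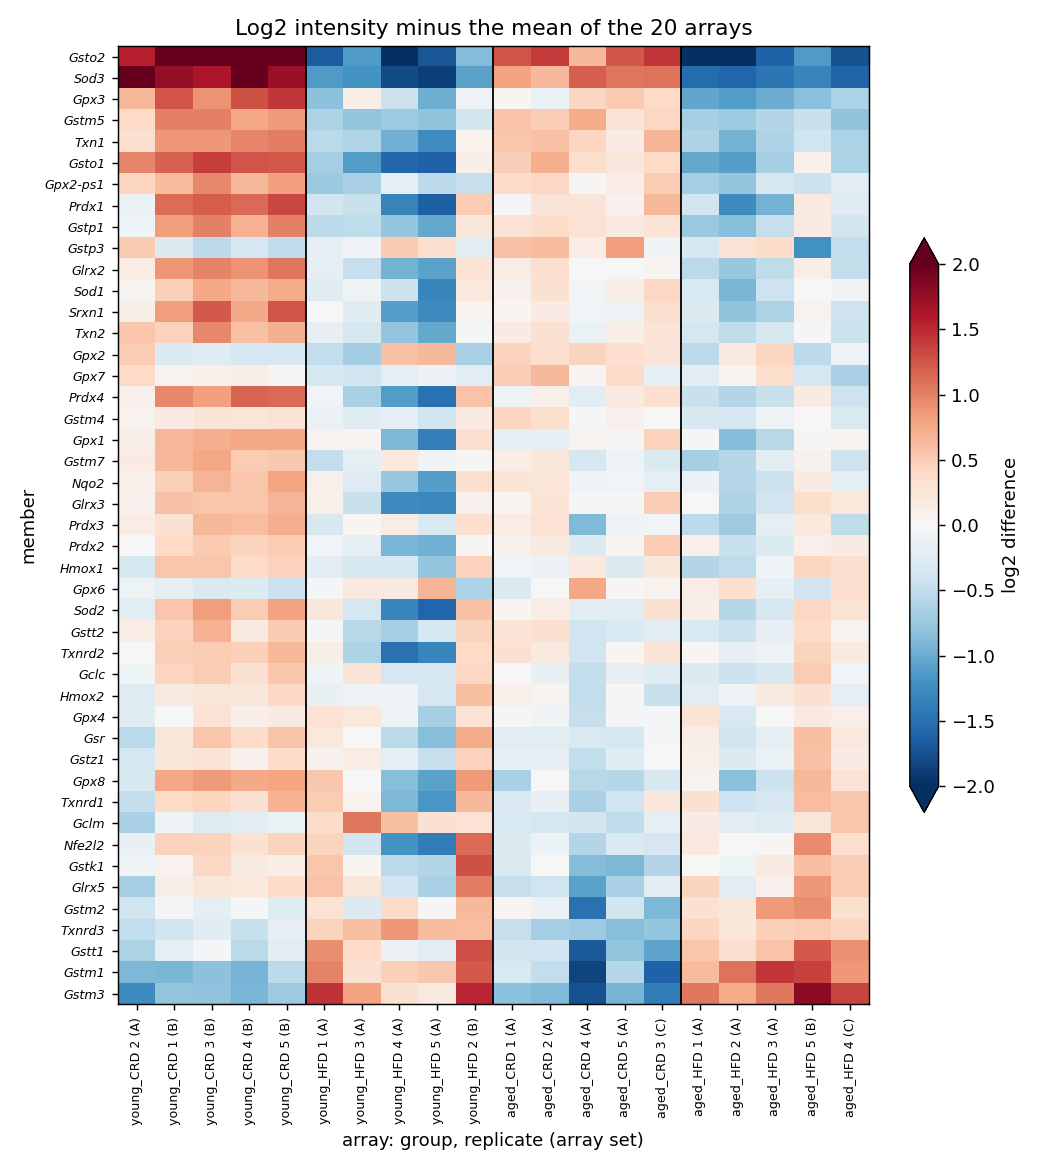
Log2 intensity minus the mean of the 20 arrays (colour) for the members (rows) on each array (columns, labelled by group, replicate and array set). Gsto2, Sod3 and Gsto1 are higher on CRD than on HFD arrays of the same age and Gstm3 and Gstm1 lower, while in rows such as Prdx1 and Nfe2l2 the set B arrays of HFD groups are high as well.

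Counts by place in the cell and for selenoproteins stand beside 17% of all genes called higher and 7.89% lower at 18 weeks, and 3.5% and 4.84% at 39 weeks. In the block fit these shares were 6.89% and 5.97% at 18 weeks, and 7.49% and 7.79% at 39 weeks. Grouped by where the enzymes act, 3 of the 5 secreted or endoplasmic reticulum members (Gpx3, Gpx7, Gpx8, Prdx4 and Sod3) rose at 18 weeks and 2 at 39 weeks, and the block fit called 4 and 2. Of the 6 mitochondrial members (Glrx2, Glrx5, Prdx3, Sod2, Txn2 and Txnrd2) 4 rose at 18 weeks and 0 at 39 weeks, and the block fit called 2 higher at 18 weeks and 2 higher and 1 lower at 39 weeks. At a background of 3.5%, 0 of 6 is no result about the mitochondrial members. Gstk1, of mitochondria and peroxisomes, was not counted among these 6 and was called at neither age in either fit. Among the 7 selenoproteins (Gpx1 to Gpx4 and the 3 thioredoxin reductases) 3 rose and 1 fell at 18 weeks, and 1 rose and 1 fell at 39 weeks. In the block fit, 1 selenoprotein rose and 1 fell at each age. These groupings were chosen with the results known.

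Other genes of the same pathways were counted for comparison, beside the same shares over all genes: 17% higher and 7.89% lower at 18 weeks and 3.5% and 4.84% at 39 weeks, and in the block fit 6.89% and 5.97%, then 7.49% and 7.79%. In lists of this size a count of 0 or 1 in 1 direction is near these shares, other than the 17%, which it falls below on few genes. Differences of single genes in these lists are from the fit without the block unless the block fit is named. Thioredoxin partners and thioredoxin-fold proteins had 11 higher and 1 lower of 23 at 18 weeks and 3 and 1 at 39 weeks, and in the block fit 5 and 1 at both ages. Both subunits of ribonucleotide reductase, the enzyme that makes deoxynucleotides and draws on thioredoxin, rose: Rrm2 by 2.75 ± 0.29 (adjusted p = 1.76e-06) at 18 weeks and 2.41 ± 0.29 (adjusted p = 1.68e-05) at 39 weeks, and Rrm1 by 1.91 ± 0.23 and 1.56 ± 0.23. The methionine sulfoxide reductase Msrb1 rose by 0.90 ± 0.13 and 0.67 ± 0.13, and the membrane thioredoxin-fold protein Tmx3 fell by 0.68 ± 0.23 and 0.91 ± 0.23. Txnip, the thioredoxin-binding protein induced by glucose, rose by 2.27 ± 0.53 (adjusted p = 0.00426) at 18 weeks and differed by 0.78 ± 0.53 (adjusted p = 0.453) at 39 weeks, and in the block fit by 1.23 and 1.13, both called. NRF2 targets outside the families had 4 higher and 1 lower of 12 at 18 weeks and 1 of each at 39 weeks, and in the block fit 2 and 2 at both ages. Osgin1, an oxidative stress induced growth inhibitor, rose by 0.91 ± 0.14 and 0.83 ± 0.14, while Blvrb, biliverdin reductase B, fell by 1.48 ± 0.30 at 18 weeks and Ftl1, the ferritin light chain, by 0.87 ± 0.23 at 39 weeks. Ephx1 averaged 10.25 in young_CRD, 8.91 in young_HFD, 9.90 in aged_CRD and 9.31 in aged_HFD. Pir read 5.62, 4.62, 5.73, 5.44 and 5.94 in young_CRD, against 4.11, 4.91, 4.04, 4.13 and 3.42 in young_HFD. At 39 weeks Pir read 5.29, 4.91, 4.83, 4.38 and 4.95 in aged_CRD, against 4.30, 4.26, 4.57, 4.23 and 4.78 in aged_HFD. Its groups overlapped at both ages.

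In the 4 remaining pathway lists the block fit called 0 or 1 member higher at 18 weeks. Glutathione supply, use and export had 5 higher and 1 lower of 21 at 18 weeks and 0 and 1 at 39 weeks, against 0 and 0, then 0 and 1, in the block fit. Glutathione synthetase (Gss) differed by 0.24 ± 0.16 (adjusted p = 0.271) and -0.01 ± 0.16 (adjusted p = 0.982), and the cystine carrier Slc7a11 was below the filter. NRF2 regulators and partners had 1 higher and 0 lower of 13 at 18 weeks and 0 and 2 at 39 weeks, and in the block fit 1 and 3, then 1 and 2. Keap1, which marks NRF2 for breakdown, differed by 0.28 ± 0.24 (adjusted p = 0.389) and -0.26 ± 0.24 (adjusted p = 0.628). The small MAF gene Mafg fell by 0.95 ± 0.23 and the NRF2 relative Nfe2l1 by 0.88 ± 0.24 at 39 weeks. Syvn1 read 12.61, 11.82, 12.85, 12.43 and 12.80 in young_CRD, all above its 11.33, 11.70, 11.50, 10.34 and 10.31 in young_HFD. Such a separation was seen in 6.6% of all genes. At 39 weeks Syvn1 read 11.62, 11.74, 12.15, 11.42 and 11.63 in aged_CRD, against 11.08, 10.62, 11.03, 11.22 and 11.77 in aged_HFD, and these groups overlapped. Other peroxide and superoxide enzymes had 4 higher and 1 lower of 11 at 18 weeks and 0 and 3 at 39 weeks, and in the block fit 0 and 2, then 0 and 3. Catalase (Cat) rose by 1.08 ± 0.38 (adjusted p = 0.0418) at 18 weeks, which the block fit did not call (0.41, adjusted p = 0.549), and the sestrins Sesn1 and Sesn3 fell by 1.28 ± 0.23 and 0.95 ± 0.20 at 39 weeks. Selenoproteins and selenocysteine synthesis had 9 higher and 1 lower of 19 at 18 weeks and 1 of each at 39 weeks, and in the block fit 1 and 1, then 3 and 2. Sepsecs, which makes selenocysteine on its transfer RNA, fell by 1.92 ± 0.25 and 1.57 ± 0.25, and Selenom of the endoplasmic reticulum rose by 1.21 ± 0.19 and 1.17 ± 0.19.

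Between the ages no member was called. On HFD, 39 against 18 weeks, limma called 0 of 45 members, beside 0.0928% of all genes (0 in the block fit, beside 0.912%), and 3 had an unadjusted p under 0.05: Gclm, Gpx3 and Txnrd2. After CRD it called 0 of 45 members, beside 0.0273% (0 in the block fit, beside 0%), and 18 had an unadjusted p under 0.05 (2 in the block fit). The members' median of 39 minus 18 weeks after CRD was -0.47 and 0.01 in the block fit, beside -0.18 and 0.02 over all genes. The share of all genes at an unadjusted p under 0.05 was not counted, so the counts at that p are no result about the members. Sod3 averaged 8.41 in aged_CRD and 9.39 in young_CRD, a difference of -0.98 ± 0.20 (SE, adjusted p = 0.0892). Its groups did not overlap, and neither did those of Gpx3, Gsto1, Gsto2 and Txn2, with aged_CRD below young_CRD in these 5 members, beside 3.68% of all genes. With the single set A array of young_CRD (replicate 2) left out of the fit, 1 member was called higher after CRD and 18 lower. Over all 18311 genes tested that fit called 2872 higher and 3594 lower. Without young_HFD replicate 2, the set B array, 1 member was called lower, beside 6 genes higher and 52 lower.

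The difference between the CRD effects, 39 minus 18 weeks, was not called for any member or for any gene tested (0%). At an unadjusted p under 0.05 there were 11 members, and 1 in the block fit, Sod3, whose difference of effects was -0.89 ± 0.28 (SE, adjusted p = 0.222) and -0.85 in the block fit. The share of all genes at that unadjusted p was not counted here either. Without young_HFD replicate 2, 8 members were called with a lower CRD effect at 39 than at 18 weeks, Sod3 and Gsto1 among them. Over all 18311 genes tested that fit called 2747 lower and 1129 higher, so 8 of 45 is near the share over all genes. A member called at 18 weeks and not at 39 weeks is therefore not shown to differ between the ages. The 2 CRD contrasts share no array, but in the fit all 4 groups share 1 estimate of the spread.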

How the data were processed

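Islet RNA of 20 male mice was measured on 1-colour Agilent arrays. The deposited values are linear intensities, which the authors had quantile normalized, since all 20 columns hold identical sorted values. The submitters' processing notes name Agilent Feature Extraction 11. How background was treated is not stated in the labels, and precision is limited by the number of arrays. Of 59448 probes, 30010 had 1 gene symbol, all matched in RefSeq (GRCm38.p6), which was used for names, gene order and promoters. The probe with the highest mean stood for a gene. Genes in the lowest 30% by mean (log2 4.83) were left out. log2 values were fitted with limma 3.58.1 in R 4.3.3 on 4 groups, with Benjamini-Hochberg adjustment over 18311 genes. Array sets came from average-linkage clustering on the receptor genes of smell and taste (correlations 0.925 to 0.978 within sets, 0.847 to 0.916 between). The fit was tested on simulated data. Values in every array are given for members called in a CRD contrast in both fits, and always for Nfe2l2, Gclc, Gclm, Gsr, Txn1, Txnrd1, Srxn1, Nqo1 and Hmox1. Members, lists, motifs and alternatives were chosen with earlier results of these data known. Replicate numbers were checked for pairing by correlating deviations from the group means: same-numbered pairs correlated from -0.85 to 0.86, with 10 of 30 over 0.1. These deviations also carry the array sets, so the check cannot decide whether mice were paired. Another number in the titles, which partly recurs between diet groups, was not checked.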

Additional observations from a re-analysis of the deposited data

Results flagged for a closer look

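The 25 members whose values are given for every array make 100 groups of 5 arrays. In 9 of these, 1 array stood far from the other 4 (gap over range above Dixon's critical value of 0.71). For a single group, chance gives about 1 in 20. The 100 groups share the same arrays and are not independent, so the 9 cannot be set against that rate. In young_CRD replicate 2, the group's only set A array, Prdx1 was 11.27 with the others at 12.50 to 12.72, Txn1 11.25 with the others at 11.80 to 11.96, Glrx2 9.11 with 9.85 to 10.04, Nfe2l2 7.04 with 7.49 to 7.65 and Hmox1 5.88 with 6.57 to 6.75. Gsto2 in aged_CRD replicate 4 was 8.57, with the others at 9.16 to 9.34. Gstm1 in young_CRD replicate 5 was 7.31, with the others at 6.91 to 7.02. Prdx4 in aged_HFD replicate 5, a set B array, was 10.29, with the others at 9.54 to 9.72. Txnrd3 in aged_HFD replicate 2 was 6.04, with the others at 6.25 to 6.33. All values are log2 intensities.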

How the results depend on the processing

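No called difference of a member named with its values turned round, but some uncalled ones changed sign. At 18 weeks the block fit gave -0.051 for Nfe2l2, -0.019 for Gclc, -0.22 for Gsr and -0.11 for Txnrd1 (0.58, 0.36, 0.33 and 0.43 without it), and set A alone -0.24 for Gsr and -0.11 for Txnrd1. At 39 weeks Gclc (-0.09) was 0.031 in the block fit, 0.14 in set A alone and -0.18 to 0.061 leaving out 1 array, highest without aged_HFD replicate 5. Hmox1 (0.08) was -0.12 with the chemosensory receptor genes at the same mean and -0.044 to 0.21 leaving out 1 array, below 0 without aged_HFD replicate 1 or 2. The cause was not tested. The members' median for age after CRD was 0.01 in the block fit, -0.47 without it. With the array set as a block, members called higher went to 14 of 45 at 18 weeks (22 without it) and to 14 at 39 weeks (7 without it). Set A alone, where the 18-week CRD arm is 1 array assumed to vary like the other groups, called 3 higher and 0 lower at 18 weeks and 8 higher and 3 lower at 39 weeks. With the chemosensory receptor genes brought to the same mean on every array, 2 members were called lower at 18 weeks, 2 higher at 39 weeks (Gsto2 and Sod3) and 30 lower at 39 against 18 weeks after CRD; this scaling moved the median of all genes to 0.31 and -0.18 for CRD at 18 and 39 weeks, -0.73 for age after CRD and -0.63 for the difference of effects, and the members' medians to 0.90, 0.02, -1.01 and -1.06. Leaving out the lowest 50% of genes called 3 lower at 39 weeks, and without a filter 1 member was called for age after CRD. Leaving out each array in turn gave 18 to 27 higher and 4 to 5 lower at 18 weeks, 7 to 8 higher and 5 to 7 lower at 39 weeks, 0 to 0 for age on HFD, 0 to 19 for age after CRD and 0 to 8 for the difference of effects. Without young_CRD replicate 2, age after CRD had 2872 genes higher and 3594 lower of 18311. Without young_HFD replicate 2, the difference of effects had 1129 and 2747. For members named with their values, 234 values under other alternatives kept the call and the direction, 24 lost the call, 9 gained it, and 150 stayed uncalled with the same sign; leaving out 1 array kept 580 calls, lost 0 and gained 11, and 366 stayed uncalled with the same sign. With the replicate number as a block, 20 members were called higher and 4 lower at 18 weeks and 7 and 5 at 39 weeks, and no call of a member named with its values changed; the pairing is not stated in the labels, and 2 of 20 arrays matched best an array of their own number. Background level and detection are unknown, so low values such as those of Nqo1 carry no detection call.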
